A study of Mus musculus with 6 samples.

Results

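The Cyp2a family of cytochrome P450 genes was described in liver RNA of mice on a high-fat diet, with and without atractylodin, a compound of Atractylodes plants. Its 4 members, Cyp2a4, Cyp2a5, Cyp2a12 and Cyp2a22, were chosen by gene symbol, and all 4 were found among the 23282 rows of the count files and among the 12505 rows that passed the filter on low counts. The family itself was selected from this comparison, with earlier values of it known, so differences of the members between the groups are given as a description and without a test. The study asked how atractylodin acts on fatty liver caused by the diet. Male C57BL/6N mice (labelled C57BL/6 at the sample level) began the diet at 8 weeks of age and were kept on it for 12 weeks. From week 8 of the diet the 3 vehicle samples received vehicle, and the 3 atractylodin samples received 10 mg/kg of atractylodin by mouth on 5 days of each week for 4 weeks. All 6 samples shared the high-fat diet, and no group on a control diet was analysed here. The labels number the libraries within a group but do not say that each came from its own animal, so the errors measure the spread between these libraries, which may be technical.

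Cytochrome P450 enzymes sit in the endoplasmic reticulum and oxidise drugs, plant compounds, steroids and bile acids with electrons from P450 oxidoreductase. Cyp2a5 is the mouse coumarin and nicotine hydroxylase, the counterpart of human CYP2A6, and it also oxidises bilirubin. It is known for its induction in liver by xenobiotics and by liver injury. Cyp2a4 is a near-identical copy that hydroxylates testosterone and is higher in female than in male liver. Cyp2a12 encodes a hydroxylase of steroids and bile acids.

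The promoters are shown first because they show the 2 near-identical pairs that the values below are read by. The windows run from 250 bases before to 50 bases after the gene start used by the RefSeq promoter table on GRCm38.p6, which for Cyp2a22 lies 27 bases inside the outer bound of its RefSeq gene, and are written 5′ to 3′ on the strand of the gene, and have capitals where a base differs from, or has no partner in, the other gene of its pair.
Cyp2a4 (chr7:26306942-26307241, plus strand): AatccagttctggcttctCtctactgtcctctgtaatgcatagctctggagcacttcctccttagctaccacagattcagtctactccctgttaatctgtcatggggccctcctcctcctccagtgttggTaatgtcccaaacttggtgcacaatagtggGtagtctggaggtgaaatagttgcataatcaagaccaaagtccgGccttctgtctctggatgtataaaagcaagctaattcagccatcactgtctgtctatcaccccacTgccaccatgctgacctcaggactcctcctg
Cyp2a5 (chr7:26835089-26835388, plus strand): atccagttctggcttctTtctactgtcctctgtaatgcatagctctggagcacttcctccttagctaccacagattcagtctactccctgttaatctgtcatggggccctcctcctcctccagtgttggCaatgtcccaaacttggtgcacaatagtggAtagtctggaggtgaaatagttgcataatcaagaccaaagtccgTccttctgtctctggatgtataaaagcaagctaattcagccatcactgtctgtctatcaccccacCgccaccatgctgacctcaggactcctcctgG
Cyp2a12 (chr7:27028840-27029139, plus strand): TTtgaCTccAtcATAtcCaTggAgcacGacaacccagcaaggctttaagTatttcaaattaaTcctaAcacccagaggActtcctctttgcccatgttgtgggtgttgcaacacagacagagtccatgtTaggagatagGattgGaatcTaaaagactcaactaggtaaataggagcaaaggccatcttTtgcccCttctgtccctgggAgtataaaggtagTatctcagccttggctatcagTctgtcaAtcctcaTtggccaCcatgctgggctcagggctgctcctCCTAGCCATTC
Cyp2a22 (chr7:26939337-26939636, minus strand): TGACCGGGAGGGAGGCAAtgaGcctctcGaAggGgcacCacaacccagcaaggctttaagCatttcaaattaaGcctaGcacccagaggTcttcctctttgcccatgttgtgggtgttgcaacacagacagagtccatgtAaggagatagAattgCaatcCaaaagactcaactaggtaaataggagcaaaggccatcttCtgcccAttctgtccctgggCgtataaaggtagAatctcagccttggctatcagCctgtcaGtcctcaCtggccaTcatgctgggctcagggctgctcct

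Within the first pair, 294 aligned bases of the Cyp2a4 and Cyp2a5 promoters were identical and 5 differed, an identity of 98.3%. The Cyp2a12 and Cyp2a22 promoters aligned with 261 identical bases, 23 mismatches and 5 gap bases, an identity of 90.3%. A search for 7 motifs on both strands, with the letters chosen after the promoters had been read, found TATAAA, the TATA box, once in each of the 4, starting 28 bases before that start in Cyp2a4 and Cyp2a22, 29 in Cyp2a5 and 39 in Cyp2a12. The letters CAAAGTCC, a form of the element bound by the hepatocyte nuclear factor HNF4, began 55 bases before the start of Cyp2a4 and 56 before that of Cyp2a5. They were not in the windows of Cyp2a12 and Cyp2a22, and 1.42% of 32851 RefSeq promoters of the same length held them. TTGCNNAA, a core shared by C/EBP and PAR-bZIP factors, matched in Cyp2a4 and Cyp2a5 at 70 and 71 bases before the start, against 10.8% of all promoters, with no overlap with the other motifs. TGACNNNGC (the antioxidant response element of NRF2, 12.4% of promoters), CACGTG (the USF E-box, 7.15%), GCGTG (the core bound by AHR, 32.4%) and TTCNNNGAA (a STAT element, 8.3%) were in none of the 4 windows.

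The genes share a cluster on chromosome 7. On GENCODE M21 (GRCm38), Cyp2a4 lies at 26307169 to 26315088 and Cyp2a5 at 26835305 to 26843548, 520 kb apart and on the plus strand. Cyp2a22 (26931631 to 26939384, minus strand) lies 88.1 kb beyond Cyp2a5, and Cyp2a12 (27029081 to 27037375, plus strand) another 89.7 kb on. The main transcript of each has 9 exons. Those of Cyp2a4 and Cyp2a5 were 98.2% identical and those of Cyp2a12 and Cyp2a22 96.1%, while identity across the pairs was 72.5% to 74.5%. Because the libraries sample the 3′ end of transcripts, the last 300 bases were cut in windows of 50 bases and looked up in all GENCODE transcripts. At the annotated 3′ end, 22.3% of the windows of Cyp2a4 were also in another gene (Cyp2a5), and none of those of Cyp2a5 or Cyp2a22 were. RefSeq ends Cyp2a5 284 bases earlier, and at that end 24.7% of its windows were shared with Cyp2a4 or the pseudogene Cyp2a21-ps. Of the windows of Cyp2a12, 10.4% were shared with Cyp2a22, or 32.3% at the RefSeq end. Over the last 500 bases the shares were 44.3% for Cyp2a4, 12.4% for Cyp2a5 (46.3% at the RefSeq end), 16.4% for Cyp2a12 (25.5%) and 5.76% for Cyp2a22. How reads that match several genes were counted is not given in the sources used here, so the split of counts within each pair is uncertain. Cyp2a4 overlaps the antisense gene Gm42375 at its start and Cyp2a22 lies within Cyp2a21-ps on the other strand. No symbol of these 2 genes is among the rows of the files.

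Total counts were 9871762 to 12565393 in 5 libraries and 1831461 in vehicle 1. Levels are in CPM, in which every library is brought to a total of 1e6. The floor set by 3 counts was 1.64 CPM in vehicle 1 and at most 0.304 CPM in the others. The members took 0.0715% to 0.103% of all counts in the vehicle libraries and 0.162% to 0.214% in the atractylodin libraries. Values below are CPM on TMM-scaled library sizes, with means ± SD of 3 libraries.

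Cyp2a5, the coumarin hydroxylase, was the member with the largest gain in level. Its level was 281.5, 475.9 and 336.7 CPM in vehicle 1, 2 and 3, and 1013, 1437 and 1535 CPM in atractylodin 1, 2 and 3. Every atractylodin library lay above every vehicle library, with atractylodin 1 the lowest of its group and vehicle 2 the highest of its own. The means were 364.7 ± 100 CPM with vehicle and 1328 ± 278 CPM with atractylodin (SD, n = 3 each), and the log2 fold change was 1.86 ± 0.26 (SE, edgeR), a 3.62-fold higher level. By mean level Cyp2a5 moved from place 320 to place 99 among the 12505 tested rows. A change in the number of cells that express a gene and a change in its RNA per cell cannot be told apart in whole liver. This holds for every value here, higher or lower.

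Cyp2a4, the testosterone hydroxylase, was lower than Cyp2a5 in every library and had the same pattern. It stood at 34.99, 69.37 and 45.35 CPM in vehicle 1, 2 and 3, and at 145.3, 202.1 and 215.6 CPM in atractylodin 1, 2 and 3. The groups did not overlap, and the order of the libraries within each group was the order seen for Cyp2a5. The log2 fold change was 1.85 ± 0.30 (SE), 3.61-fold, from 49.91 ± 17.6 to 187.7 ± 37.3 CPM (SD, n = 3). The value in vehicle 1 rests on 65 counts, with an exact Poisson 95% interval of 27 to 44.6 CPM that covers counting error only.

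**Figure D1:**
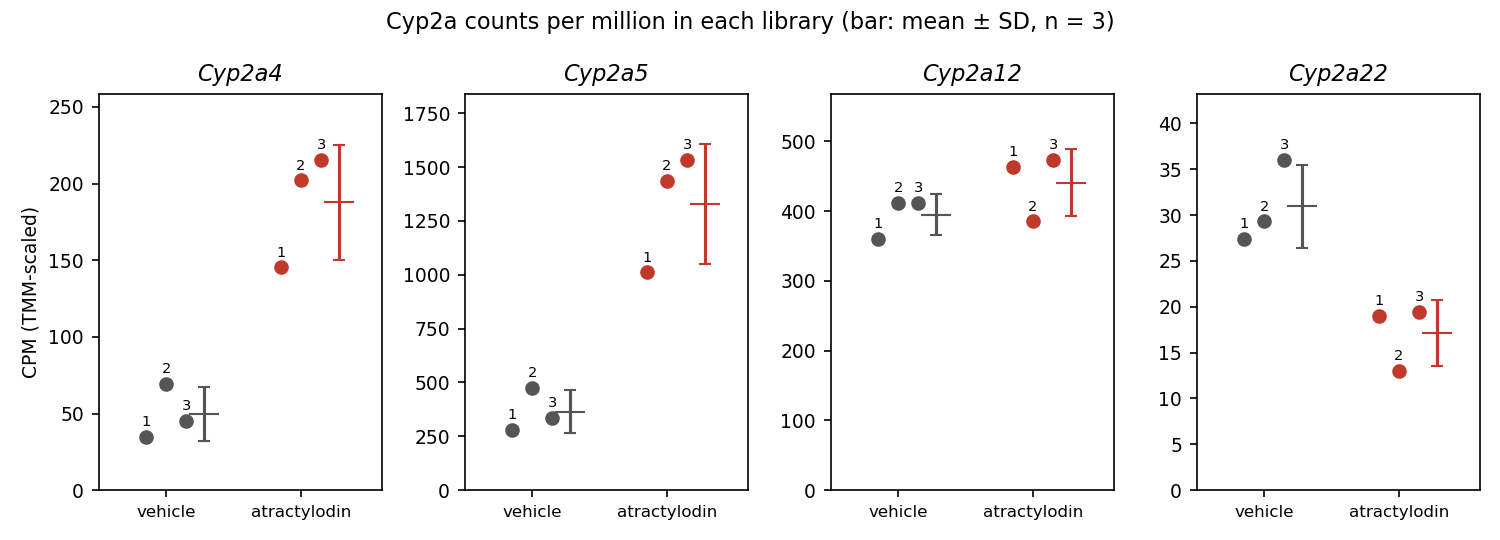
CPM (TMM-scaled, vertical axes starting at 0 and differing between panels) of each Cyp2a gene in the 3 vehicle (grey) and 3 atractylodin (red) libraries, numbered by replicate, with a bar at the mean ± SD. Cyp2a4 and Cyp2a5 lay higher in all 3 atractylodin libraries, Cyp2a22 lay lower in all 3, and Cyp2a12 overlapped between the groups.

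The share of Cyp2a4 in the counts of this pair was nearly the same in all libraries. It was 11.05% (95% Wilson interval 8.77% to 13.85%), 12.72% (11.93% to 13.56%) and 11.87% (10.98% to 12.82%) in vehicle 1, 2 and 3. In atractylodin 1, 2 and 3 it was 12.55% (11.96% to 13.16%), 12.33% (11.82% to 12.85%) and 12.32% (11.88% to 12.77%). The intervals of all 6 libraries overlapped one another between 11.96% and 12.77%, while the summed counts of the pair ran from 588 to 20962. Whether this steady share is that of the transcripts or of the way reads were assigned to the copies was not tested. The sum of the pair, which a shift of reads between the copies alone leaves unchanged, was 316.5, 545.3 and 382.1 CPM with vehicle and 1158, 1639 and 1751 CPM with atractylodin. Its log2 fold change was 1.86 ± 0.27 (SE), 3.64-fold, close to that of each copy.

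Cyp2a12, the steroid and bile acid hydroxylase, was at about the level of Cyp2a5 in vehicle livers and showed little difference between the groups. It stood at 360.7, 411.8 and 412.2 CPM in vehicle 1, 2 and 3, and at 463.4, 385.5 and 473.8 CPM in atractylodin 1, 2 and 3. Atractylodin 2 lay below vehicle 2 and vehicle 3, so the groups overlapped. The means were 394.9 ± 29.6 and 440.9 ± 48.2 CPM (SD, n = 3), and the log2 fold change was 0.16 ± 0.10 (SE). Its spread within groups was the smallest of the 4, with a coefficient of variation of 7.5% with vehicle and 10.9% with atractylodin, against 27.5% and 20.9% for Cyp2a5.

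Cyp2a22, the gene nearest to Cyp2a12 in sequence and the least abundant member, was lower with atractylodin. Its levels were 27.45, 29.36 and 36.06 CPM in vehicle 1, 2 and 3, and 19.03, 13.05 and 19.46 CPM in atractylodin 1, 2 and 3. All 3 atractylodin libraries lay below all 3 vehicle libraries, with atractylodin 2 the lowest. The log2 fold change was -0.87 ± 0.17 (SE), which is 1.83-fold lower, from 30.96 ± 4.52 to 17.18 ± 3.58 CPM (SD, n = 3). These values rest on 51 to 446 counts, and the Poisson 95% interval in vehicle 1 was 20.4 to 36.1 CPM, which overlaps that of atractylodin 1 (16.4 to 21.9 CPM).

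Within the second pair, unlike the first, the share of the rarer gene differed between the groups. Cyp2a22 held 7.07%, 6.66% and 8.05% of the counts of Cyp2a12 and Cyp2a22 in vehicle 1, 2 and 3. With atractylodin it held 3.95%, 3.27% and 3.95%. The lowest Wilson bound among the vehicle libraries was 5.42% and the highest among the atractylodin libraries 4.53%. No interval of one group met one of the other, but these intervals cover counting error only and not the spread between libraries. Since Cyp2a12 is the abundant gene of the pair, the sum of the pair followed it, with a log2 fold change of 0.10 ± 0.10 (SE).

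**Figure D2:**
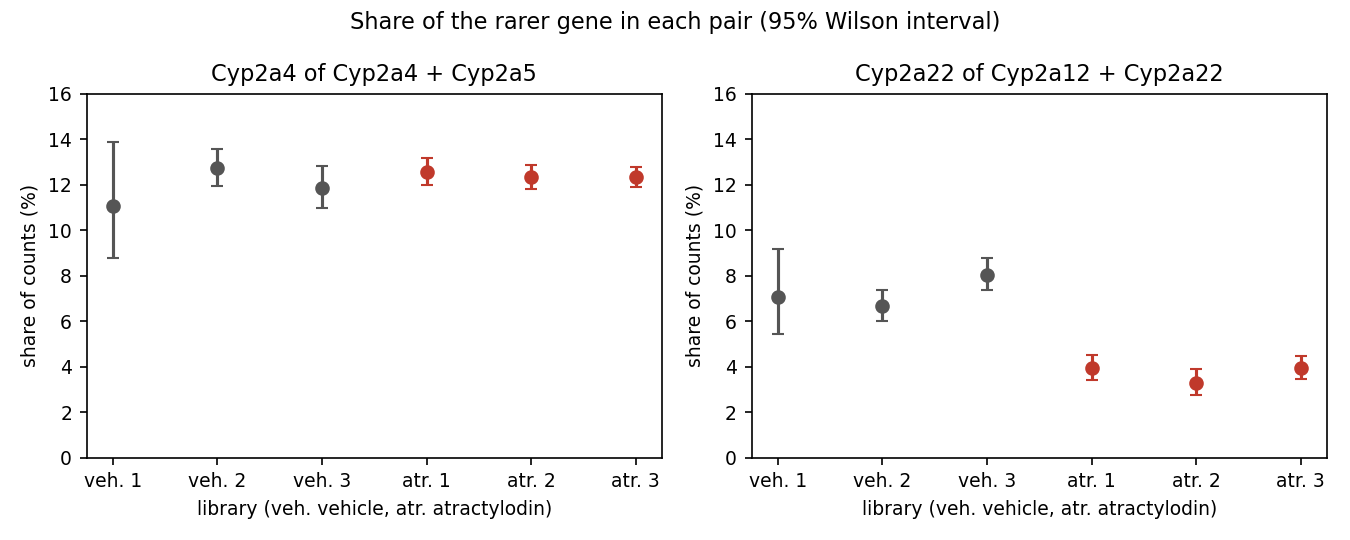
Share of the rarer gene in the counts of each pair, in percent on axes that start at 0, for each vehicle (grey) and atractylodin (red) library, with 95% Wilson intervals that cover counting error only. Cyp2a4 stayed between 11.05% and 12.72% of its pair in all 6 libraries, while Cyp2a22 made up 6.66% to 8.05% of its pair with vehicle and 3.27% to 3.95% with atractylodin.

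Summed over the 4 genes, Cyp2a RNA was 704.6, 986.4 and 830.3 CPM in vehicle 1, 2 and 3 and 1640, 2037 and 2244 CPM in atractylodin 1, 2 and 3. The sum was higher in every atractylodin library, by 2.34-fold (log2 1.23 ± 0.14, SE). Cyp2a5 made up 963.4 of the 1133 CPM gained, or 85.0%, Cyp2a4 12.2% and Cyp2a12 4.06%, and Cyp2a22 took away 1.22%. The pair of Cyp2a4 and Cyp2a5 held 44.9% to 55.3% of the family's counts with vehicle and 70.6% to 80.4% with atractylodin. In vehicle livers the order by level was Cyp2a12, Cyp2a5, Cyp2a4 and Cyp2a22. There Cyp2a12 and Cyp2a5 overlapped across libraries, as did Cyp2a4 and Cyp2a22. With atractylodin the order was Cyp2a5, Cyp2a12, Cyp2a4 and Cyp2a22, with no overlap between neighbours. A library of 3′ ends yields counts that are not meant to grow with transcript length. Levels per kb of the annotated main transcript gave the same order in each group, with Cyp2a12 at 235 and Cyp2a5 at 181 CPM per kb with vehicle and 262 and 660 with atractylodin.

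Cyp2a4, Cyp2a5 and Cyp2a22, 3 of the 4 members, showed no overlap between vehicle and atractylodin libraries, and neither did 26.2% of all 12505 tested rows. Nothing is read from that count, since the family was selected from this contrast. When each of the 6 libraries was left out in turn, log2 fold changes ran from 1.71 to 2.10 for Cyp2a5, 1.71 to 2.18 for Cyp2a4, -0.97 to -0.71 for Cyp2a22 and 0.10 to 0.25 for Cyp2a12.

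**Figure D3:**
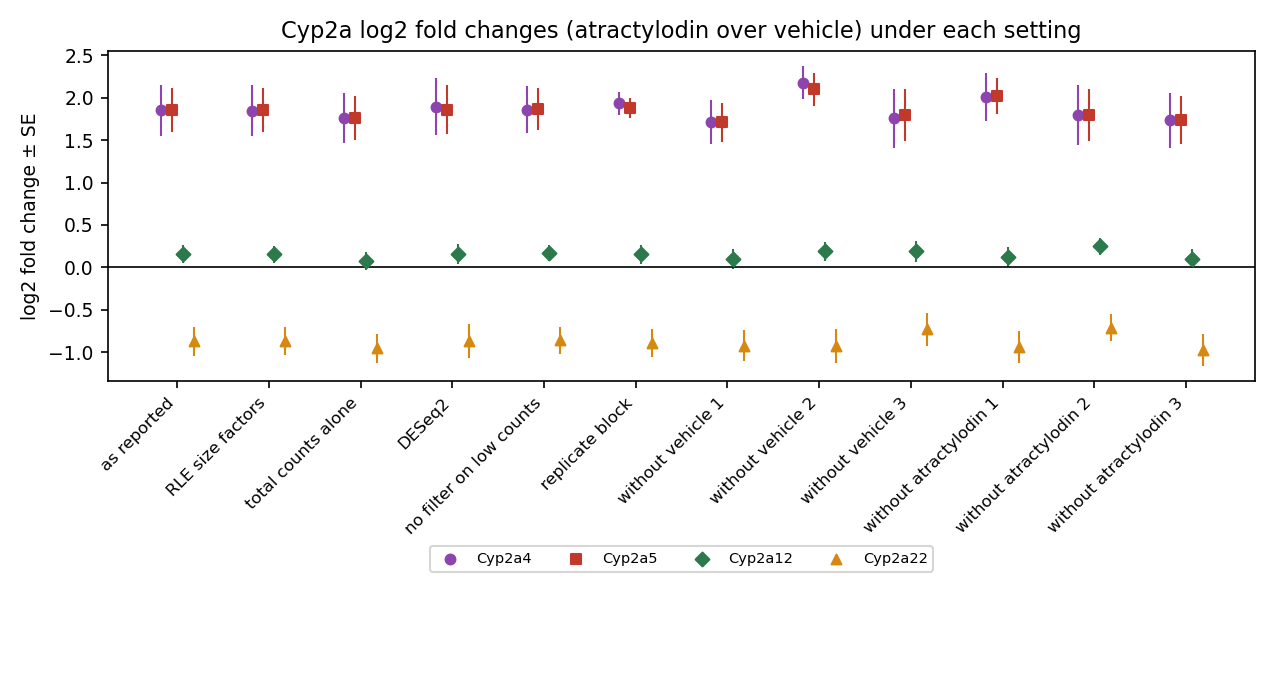
Log2 fold change of each Cyp2a gene (atractylodin over vehicle) with its SE, as reported and under 11 other settings. Each gene kept its side of 0 throughout, with Cyp2a4 and Cyp2a5 between 1.71 and 2.18.

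The pairs also shared their deviations from the group means. Across the 6 libraries, with group means subtracted from log2 CPM, Cyp2a4 and Cyp2a5 deviated together (Pearson's r = 0.99), and so did Cyp2a12 and Cyp2a22 (r = 0.91). Between the pairs r ran from -0.15 to 0.26. Atractylodin 2 was low for Cyp2a12 and Cyp2a22, by -0.19 and -0.37 on the log2 scale, but above its group mean for Cyp2a5, by 0.14. In vehicle 2 the second pair parted, with Cyp2a12 at 0.06 and Cyp2a22 at -0.07. These are descriptions over libraries that share depth and handling, with 4 deviations free to vary. The part of reads that match both genes of a pair in these correlations was not tested.

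The neighbours of the family on chromosome 7 did not move as a block. Of all tested rows 7.25% passed edgeR's quasi-likelihood test with Benjamini-Hochberg adjustment at 0.05, 3.92% as higher and 3.33% as lower. Scaling by total counts alone gave 312 higher and 707 lower rows, in place of 490 and 416. From Cyp2a4 to Cyp2a12 the annotation lists 15 genes, of which 11 are in the files and 5 were tested: the 4 members and Cyp2b23, which stood at 3.23 and 4.07 CPM in the group means (log2 0.34 ± 0.34, adjusted p = 0.618). Of 9 other Cyp2 genes of the cluster 6 were tested, 1 rose and 2 fell by edgeR, with a median log2 fold change of 0.10 against -0.0015 for all tested rows. Cyp2b9 and Cyp2b13, the P450 genes next to Cyp2a4 and, like it, female-biased in mouse liver, went the other way. Cyp2b9 fell from 92.4 ± 4.58 to 53.0 ± 7.31 CPM (SD of 3 libraries, edgeR adjusted p = 0.000319). Cyp2b13 fell from 5.45 ± 2.74 to 1.45 ± 0.48 CPM (edgeR adjusted p = 0.0198). Cyp2t4 rose from 1.37 ± 0.37 to 4.08 ± 0.45 CPM (edgeR adjusted p = 0.0158). The call of Cyp2b13 was lost without vehicle 1, atractylodin 1 or atractylodin 2, and that of Cyp2t4 without vehicle 2 or atractylodin 3. Cyp2b10, the classical target of the nuclear receptor CAR, named here after its values were seen, stood at 5.5 ± 1.68 and 31.5 ± 19.4 CPM. It did not pass in edgeR (adjusted p = 0.0871). DESeq2, and edgeR with the replicate number as a block, each called 4 of the 6 tested genes, Cyp2b9, Cyp2b13 and Cyp2t4 among them.

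**Figure D4:**
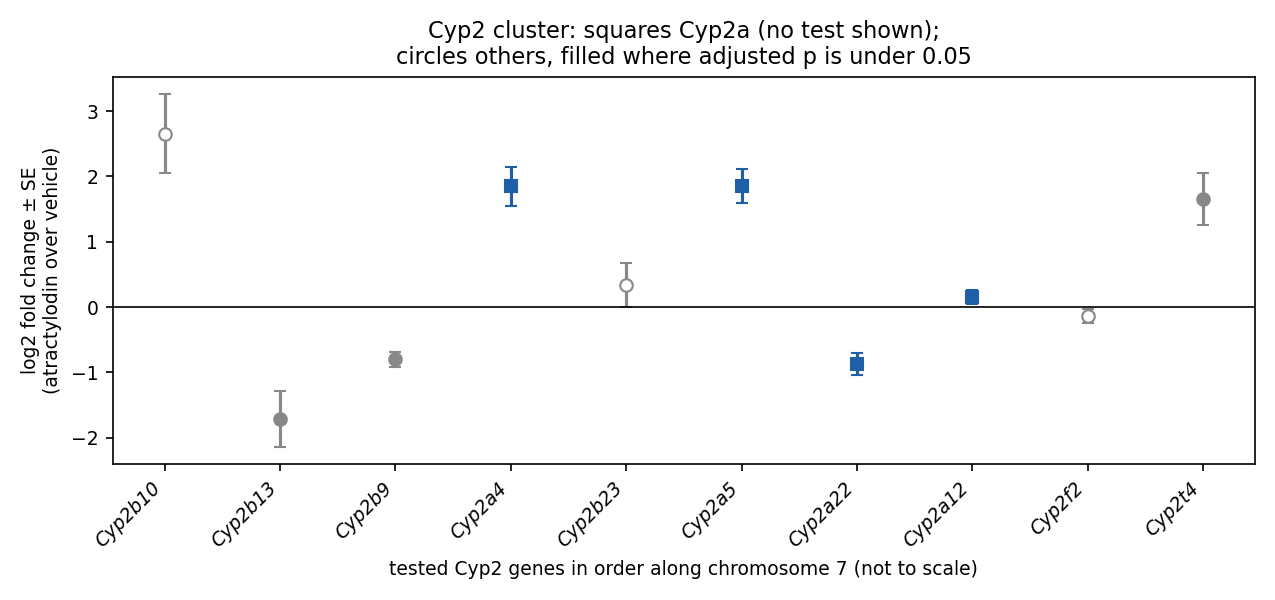
Log2 fold change (atractylodin over vehicle) ± SE of the 10 tested Cyp2 genes in their order along chromosome 7, with Cyp2a genes as squares, shown without a test, and the others as circles, filled for an edgeR adjusted p under 0.05. Cyp2a4 and Cyp2a5, with Cyp2b23 between them, were at 1.85 and 1.86, next to Cyp2b9 at -0.80 on one side and Cyp2a22 at -0.87 on the other.

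Among the 9655 rows whose average log2 CPM reached 2, the log2 level of the Cyp2a4 and Cyp2a5 sum was tracked most closely by Clmn, Tmem106b, Ugt2b36, 0610043K17Rik, Mup7 and Mup15 over the 6 libraries (Pearson's r from 0.994 to 0.997). The measure takes no account of size: Clmn differed by 0.34 on the log2 scale and the major urinary protein gene Mup7 by 1.11, against 1.86 for the Cyp2a pair. Ugt2b36, a glucuronosyltransferase gene, went from 419 ± 35.0 to 615 ± 41.1 CPM (SD, n = 3), and Mup7 from 1690 ± 344 to 3640 ± 554 CPM. An r of at least 0.95 was reached by 138 rows and one of at least 0.99 by 15, so these 6 do not stand alone. Arap1 and Nsmf were among the most opposite rows (r = -0.996 and -0.993). With group means subtracted, 4632415L05Rik, Ccne2 and 0610043K17Rik were most alike (r from 0.993 to 0.998). These correlations over few libraries that share a group difference are descriptions.

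Of 26 tested genes known to act on Cyp2a5, 3 rose and 2 fell, and the median log2 fold change was 0.14 against -0.0015 for all tested rows. The rises were in nuclear receptors of the liver. Hnf4a, encoding HNF4-alpha, a master factor of hepatocytes that acts on Cyp2a5, rose from 294 ± 25.7 to 478 ± 49.2 CPM (SD, n = 3, edgeR adjusted p = 0.000405). Nr1i2, encoding the xenobiotic receptor PXR, rose from 76.0 ± 3.86 to 118 ± 5.47 CPM (adjusted p = 0.000568), and Nr1i3, encoding CAR, from 132 ± 12.0 to 192 ± 26.1 CPM (adjusted p = 0.00449). The PAR-bZIP gene Dbp, a clock output that acts on Cyp2a4 and Cyp2a5, fell from 117 ± 10.6 to 83.2 ± 7.50 CPM (edgeR adjusted p = 0.00619), while both genes were higher. The other fall was that of Hlf of the same family (log2 -0.44 ± 0.11, adjusted p = 0.0227), named with Nfe2l2 and Ppargc1a after their values were seen. Nfe2l2, encoding NRF2, stood at 98.7 and 76.7 CPM (adjusted p = 0.0535) and the coactivator gene Ppargc1a at 17.8 and 22.6 CPM (adjusted p = 0.317), and neither passed. The part of any of these genes in the Cyp2a values was not tested.

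**Figure D5:**
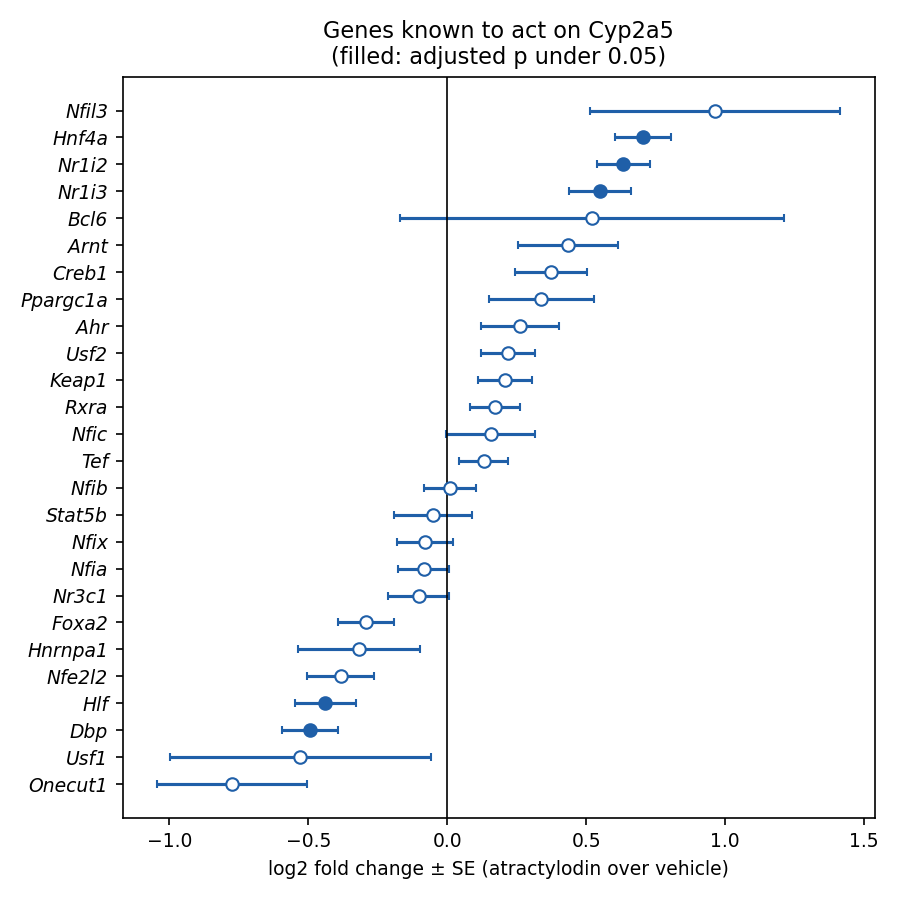
Log2 fold change (atractylodin over vehicle) ± SE of 26 tested genes listed as regulators of Cyp2a5 or their partners, filled where edgeR's adjusted p was under 0.05. A place in the list does not show that a gene acts on Cyp2a5. Hnf4a, Nr1i2 and Nr1i3 are the 3 filled points above 0, and Hlf and Dbp the 2 below.

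Targets of the receptors and factors that act on Cyp2a5 went both ways. Of 24 tested CAR and PXR targets other than the Cyp2a genes, 2 rose and 4 fell (median log2 0.25). Cyp2b9 and Cyp2b13, already counted among the neighbours on chromosome 7, were among the falls. Of the 24 estimates, called or not, 15 were higher with atractylodin. DESeq2 called 11 where edgeR called 6. Por, the P450 oxidoreductase that supplies Cyp2a enzymes with electrons, rose from 406 ± 45.5 to 869 ± 117 CPM (SD, n = 3, edgeR adjusted p = 2.59e-05). The other rise was that of Cyp2c29, named after its values were seen, from 569 ± 152 to 2260 ± 685 CPM (edgeR adjusted p = 0.0483). This call lies near the threshold, and whether it holds without 1 library was not examined. Cyp3a11, the main P450 under PXR, fell from 377 ± 102 to 132 ± 4.55 CPM (adjusted p = 0.0032). Of 24 tested NRF2 targets 8 rose and 1 fell (median 0.38), among them the epoxide hydrolase gene Ephx1 (log2 0.96 ± 0.10, adjusted p = 3.31e-05), the glutathione synthesis gene Gclc (0.76 ± 0.10, adjusted p = 0.000226) and the thioredoxin reductase gene Txnrd1 (0.65 ± 0.10, adjusted p = 0.000644). Of 3 tested AHR targets only Cyp1a2 rose (log2 0.67 ± 0.16, adjusted p = 0.0356), a call lost without vehicle 1, vehicle 3, atractylodin 2 or atractylodin 3 and when libraries were scaled by total counts.

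Of 19 tested genes of P450 electron supply, haem synthesis and haem breakdown, 4 rose and 2 fell (median log2 -0.04). Blvrb, encoding biliverdin reductase B of haem breakdown, rose from 157 ± 6.88 to 231 ± 22.6 CPM (SD, n = 3, edgeR adjusted p = 0.00185). Cyb5r3, the cytochrome b5 reductase, fell (log2 -0.47 ± 0.10, adjusted p = 0.00636), and so did the haem synthesis gene Alad (-0.41 ± 0.10, adjusted p = 0.0147), a call lost without vehicle 1, vehicle 3 or atractylodin 1. Without vehicle 3 the list held 3 calls in place of 6. Of 14 tested genes of the fasting response around PGC-1alpha, a coactivator of Cyp2a5, 4 rose and the other 10 did not pass (median 0.67), with the smallest p for the gluconeogenic gene Pck1 (log2 1.67 ± 0.19, edgeR adjusted p = 0.00247), followed by Fgf21, Pdk4 and Sik1. The log2 fold change of Pdk4, at 1.79 ± 0.44, differed from that of Pck1 by less than its SE. Pdk4 was low, at 0, 1.8 and 1.13 CPM in vehicle 1, 2 and 3 and 4.68, 3.55 and 5.18 CPM in atractylodin 1, 2 and 3. The call of Pdk4 was lost without vehicle 3 or atractylodin 3, and that of Sik1 without vehicle 2, vehicle 3 or atractylodin 2. Of 17 tested clock and PAR-bZIP genes 4 rose and 3 fell, or 3 in all without vehicle 3. Per1 rose (log2 1.40 ± 0.20, adjusted p = 0.000712) and Nr1d1 fell (-1.08 ± 0.17, adjusted p = 0.000994).

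Markers were compared to see which cells the libraries held. Summed hepatocyte markers took 94470 to 108400 CPM with vehicle and 98040 to 101300 CPM with atractylodin, and 1 of 10 rose, Hnf4a. Alb, at a mean of 54200 CPM with vehicle and 52100 CPM with atractylodin, was the largest part of these sums. Cyp2a genes are also expressed in olfactory mucosa, airway and kidney, and markers of these tissues summed to at most 1.46 CPM and 0.399 CPM in any library. Scgb3a2, Bpifb1, Slc34a1 and Kap had no count in any library, which allows up to 0.239 to 1.64 CPM per library (3 counts). Cholangiocyte markers moved with the treatment: 3 of 5 tested fell, and their sum was 70.6 to 92.6 CPM with vehicle and 36.8 to 40.4 CPM with atractylodin. The part of cholangiocytes in the Cyp2a values was not tested. Kupffer cell markers summed to 310.6 to 435 CPM with vehicle and 253.6 to 377 CPM with atractylodin, and stellate cell markers to 400 to 542.4 and 330.9 to 452.2 CPM, so both overlapped. Of 10 endothelial markers 2 rose and 3 fell, 1 of 3 lymphocyte markers fell, and 1 of 5 erythroid markers fell.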

How the data were processed

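Liver RNA of 6 samples was extracted with Trizol and made into Lexogen QuantSeq 3′ libraries from 500 ng, per the labels' protocols. The authors deposited 1 table per library, holding unnormalized read counts by gene symbol. Bowtie2, bedtools and mm10 are named in the submitters' processing notes, without versions. The annotation, the strand setting, molecular identifiers and the treatment of multiply matching reads are not given in the sources used here.

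Rows were filtered with filterByExpr, scaled by TMM and tested in edgeR 4.0.16 (R 4.3.3, quasi-likelihood F-test with robust=TRUE), without covariates, adjusted over 12505 rows at 0.05. SE is the log2 fold change over the square root of F. Sums of paralogs replaced their rows in fits of their own. Groups came from sample titles. Chi-square per degree of freedom was at least 2.75 for every pair of libraries, so none was treated as a copy. Depth was 1831461 to 12565393 counts, and intervals cover counting error only.

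Members and lists were chosen with earlier results of these data known. Named genes were the members, up to 4 called genes of each list in order of p, the rows most like or opposite to the Cyp2a4 and Cyp2a5 sum, and tested genes between the members; some genes that this rule or a list names are not reported here. Promoters came from RefSeq (GRCm38.p6, 4 of 4 matched) and were aligned with Biopython 1.88, transcripts from GENCODE M21. The test was tried on simulated data. Alternatives were RLE scaling, total counts, DESeq2 1.42.0, no filter, a replicate block and leaving out each library. Figures used matplotlib 3.10.9.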

Additional observations from a re-analysis of the deposited data

How the results depend on the processing

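The 4 members and their 3 sums kept their direction, and stayed within 1 SD of the spread between libraries, under RLE scaling, scaling by total counts, DESeq2, no filter on low counts, the replicate block and each fit without 1 library. As reported, 55 of 180 tested genes of the context lists were called (30.6%), against 7.25% of all tested rows. Those lists were chosen with earlier results known. Leaving out 1 library gave 467 to 751 called genes against 906, lowest without vehicle 3 and then without vehicle 1 (494). In the context lists it gave 34 to 47 called genes against 55, lowest without vehicle 3. The cause was not tested. Over those fits the call of 6 to 12 of 38 named list genes was lost, 22 kept theirs in all 6, and none reversed. Scaling by total counts moved the median log2 fold change of all rows from -0.0015 to -0.09 and the share of called genes that were higher from 54.1% to 30.6%. The calls of Cyp1a2, Slc1a2 and Clmn were lost with it. Without a filter 1345 genes were called. Whether the replicate numbers pair the samples is not settled here. Same-numbered libraries deviated from their group means with correlations of -0.09 to 0.02, and 1 of 6 libraries correlated best with its own number. With 3 libraries per group such correlations cannot exclude a pairing. With the replicate block 811 genes were called, and the log2 fold change was 1.93 for Cyp2a4, 1.88 for Cyp2a5, 0.15 for Cyp2a12 and -0.89 for Cyp2a22. The SE with the block was 0.135 for Cyp2a4 and 0.121 for Cyp2a5, against 0.296 and 0.26 without it. For Cyp2a12 and Cyp2a22 the SE was 0.108 and 0.164 with the block, against 0.102 and 0.169 without it. Depth limits the values of Cyp2a4 and Cyp2a22 in vehicle 1, which rest on 65 and 51 counts.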

Other observations

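Cyp2a4 is a female-biased gene in mouse liver, and Cyp2a5 is highest near the central vein, so lists of sex-biased and zonal genes were read beside them. Beside these lists, 7.25% of all tested rows were called, 3.92% as higher and 3.33% as lower. Of 9 tested female-biased genes other than Cyp2a4, 1 rose and 2 fell in edgeR (median log2 fold change -0.18, against -0.0015 for all tested rows). Without a filter on low counts 5 were called. Fmo2, a flavin monooxygenase gene, rose from 7.94 ± 1.12 to 15.0 ± 2.88 CPM (SD, n = 3, edgeR adjusted p = 0.00742), a call lost without vehicle 3, and the falls were those of Cyp2b9 and Cyp2b13. Of 16 tested male-biased genes 5 rose and 2 fell (median 0.33), with 4 calls in each fit without a vehicle library. The major urinary protein gene Mup1 rose (log2 0.75 ± 0.11, adjusted p = 0.000712), and so did the glucuronosyltransferase gene Ugt2b1 (0.51 ± 0.09, adjusted p = 0.00242). The fatty acid elongase gene Elovl3 fell from 48.4 ± 8.53 to 24.2 ± 5.1 CPM (SD, n = 3, edgeR adjusted p = 0.00283).

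Of 18 tested pericentral genes other than Cyp2a5, 2 rose and 5 fell (median log2 -0.19), with 4 calls without vehicle 1, 1 without vehicle 3, and 3 each without vehicle 2, atractylodin 2 or atractylodin 3. The rises were those of Cyp1a2, given above, and Slc1a2 (log2 0.36 ± 0.10, edgeR adjusted p = 0.0283). The call of Slc1a2 was lost in 5 of the 6 fits without 1 library. Lect2, a secreted hepatocyte factor, fell from 170 ± 15.9 to 113 ± 15.1 CPM (SD, n = 3, edgeR adjusted p = 0.00257). The Wnt receptor gene Lgr5 fell from 8.74 ± 1.55 to 4.16 ± 1.02 CPM (adjusted p = 0.0177), a call lost without vehicle 3 or atractylodin 2. Of 15 tested periportal genes 1 rose, Pck1, and 2 fell, the histidine ammonia-lyase gene Hal (log2 -0.77 ± 0.13, adjusted p = 0.00278) and Aldh1b1 (-1.58 ± 0.25, adjusted p = 0.0142, lost without atractylodin 2). Of 16 tested genes of bile acid synthesis other than Cyp2a12, 2 rose (Cyp7b1 and Cyp39a1) and 2 fell (Akr1d1 and Hsd3b7), with at most 2 calls in the fits without vehicle 1, vehicle 2, vehicle 3, atractylodin 2 or atractylodin 3. Each of these 4 calls was lost in at least 3 of the 6 fits without 1 library.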
